A study of Mus musculus with 2 samples.

Results

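The bone morphogenetic protein (BMP) pathway was described through 10 genes chosen by name and role, with earlier results of these data known. They are the ligands *Bmp2*, *Bmp4*, *Bmp6* and *Bmp7*, the receptors *Acvrl1*, *Bmpr1a* and *Bmpr2*, the intracellular inhibitor *Smad6* and the target genes *Id1* and *Id3*. All 10 were found among the 50768 genes that both deposited matrices list. Single-cell RNA sequencing (scRNAseq) had been run on 2 libraries, 1 from NOD/ShiLtJ mice, an inbred strain used as a model of Sjögren's disease that also develops diabetes, and 1 from CD1 mice, an outbred stock that served as the control. Each library pooled untreated female mice of 20 weeks, 4 mice per the study's methods and 3 per the sample labels, and both carry the label of sequencing batch 1. Submandibular glands (SMG) with the adjacent sublingual glands were dissociated and passed through an EpCAM and Ter119 depletion and a removal of dead cells, so epithelial and red cells are under-represented by design. With 1 library per strain there is no replicate, no difference was tested, and strain, pool and library cannot be told apart.

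BMP ligands are secreted dimers that bring together type I receptors, such as BMPR1A and ACVRL1 (ALK1), and type II receptors, such as BMPR2, on the receiving cell. The active receptors phosphorylate SMAD1, SMAD5 and SMAD9, which enter the nucleus with SMAD4 and switch on *Id* genes and *Smad6*, whose product in turn restrains the same receptors. ACVRL1 is known as an endothelial receptor with a high affinity for circulating GDF2 and BMP10, and its loss causes vascular malformations, whereas BMPR1A is the type I receptor through which many stromal cells read BMP2 and BMP4.

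The 250 bases before the annotated start of *Id3*, *Bmp6* and *Smad6* are shown. *Id3* was chosen because it was found in endothelial-like barcodes and in fibroblast-like ones that were nearly devoid of *Id1*. *Bmp6* and *Smad6* were the members higher in arterial-like than in capillary-like barcodes of both libraries. The sequences were taken from RefSeq on GRCm38.p6, which held a window for 6 of the 10 genes. The submitters' processing notes name GRCm39, so the positions apply to GRCm38.p6 alone. The windows lie just upstream of the gene, at chr4:136143572-136143821 (plus strand, GC content 62.8%) for *Id3*, chr13:38345466-38345715 (plus strand, GC content 68.8%) for *Bmp6* and chr9:64022060-64022309 (minus strand, GC content 66.8%) for *Smad6*. Capitals mark GTCTG, a SMAD-binding motif that reads CAGAC on the other strand, and would mark GGCGCC, a GC-rich SMAD motif that reads the same on both strands. No marked motif overlaps another.
Id3: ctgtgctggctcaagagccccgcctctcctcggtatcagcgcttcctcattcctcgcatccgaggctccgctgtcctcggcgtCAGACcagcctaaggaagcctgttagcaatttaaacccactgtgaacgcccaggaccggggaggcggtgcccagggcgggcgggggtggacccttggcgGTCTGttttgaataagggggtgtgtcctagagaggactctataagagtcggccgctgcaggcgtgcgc
Bmp6: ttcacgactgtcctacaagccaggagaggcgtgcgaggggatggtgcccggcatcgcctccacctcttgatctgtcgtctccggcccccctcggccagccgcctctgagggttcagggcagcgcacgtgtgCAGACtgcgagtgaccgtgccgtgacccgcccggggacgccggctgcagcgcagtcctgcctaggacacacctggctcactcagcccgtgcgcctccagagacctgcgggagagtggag
Smad6: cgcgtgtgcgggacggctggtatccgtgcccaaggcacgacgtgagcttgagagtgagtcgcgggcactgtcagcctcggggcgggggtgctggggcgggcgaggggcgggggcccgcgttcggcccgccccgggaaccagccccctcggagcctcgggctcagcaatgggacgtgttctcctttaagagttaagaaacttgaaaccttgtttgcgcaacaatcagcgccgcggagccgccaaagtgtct

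GTCTG was found 2 times in the *Id3* window, 167 and 68 bases before the start, and 1 time in the *Bmp6* window, 119 bases before it, and neither motif was found in that of *Smad6*. GGCGCC was found 198 bases before the start of *Bmpr1a* and 105 bases before that of *Bmpr2*. Of 32851 windows of this length, 42.2% hold GTCTG and 9.59% hold GGCGCC on either strand, and a match describes letters, not a bound site.

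Barcodes with at least 500 unique molecular identifiers (UMIs, which count RNA molecules once each) and at least 300 genes numbered 6500.0 in the NOD and 7014 in the CD1 library, with medians of 5719.5 and 6495 UMIs, and 18 barcode sequences occurred in both. A barcode was placed in a lineage when at least 75% of its marker UMIs, at least 3 UMIs of at least 2 genes, came from 1 list of markers, none of which is a BMP gene, and such classes are named "-like". This placed 77.3% of NOD and 89.7% of CD1 barcodes, of which 904 and 308 lay near the limit, with a share of 75% to 85%. Endothelial-like barcodes numbered 1033 and 2824, with medians of 5154 and 6193 UMIs, and fibroblast-like ones 57 and 19, the latter shallow at a median of 2162 UMIs. Mural-like barcodes numbered 14 in each library, macrophage-like 711 and 2954, T or NK-like 2312 and 416, and B-like 879 and 9. The 9 endothelial markers summed to 8996 and 9839 CPM (UMIs of a gene per 1000000 UMIs of the class) in endothelial-like barcodes and to 119 and 32.9 CPM in fibroblast-like ones, where the 9 fibroblast markers summed to 23765 and 24619 CPM, so both names fit their markers. The 9 mural markers summed to 13755 and 8384 CPM in mural-like barcodes, where the fibroblast markers summed to 1009 and 267 CPM. Of the 14 mural-like barcodes, 3 in NOD and 8 in CD1 were left once the barcodes with the highest doublet scores were removed, and 12 and 5 at no more than 10% mitochondrial UMIs. The part of doublets and of mitochondrial RNA in the mural-like values was not tested. Levels are in CPM with exact Poisson intervals, and shares of barcodes carry Clopper-Pearson intervals. All are 95% intervals in parentheses that cover counting error only, and CPM compares lineages or libraries for 1 gene, not genes with each other.

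The pathway was divided between vessels and stroma. *Bmp6*, *Acvrl1*, *Bmpr2*, *Smad6*, *Id1* and *Id3* were highest in endothelial-like barcodes in both libraries, and *Bmp4* was highest in fibroblast-like ones. *Bmpr1a* was shared by fibroblast-like and mural-like barcodes, and *Bmp2* and *Bmp7* had too few UMIs for an order of these lineages. Of all genes with at least 20 UMIs, 13.2% in NOD and 15.7% in CD1 were highest in endothelial-like barcodes among lineages of at least 10 barcodes, against 6 of the 10 BMP genes. Since the 10 genes were chosen with earlier results of these data known, this count is a description only.

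**Figure D1:**
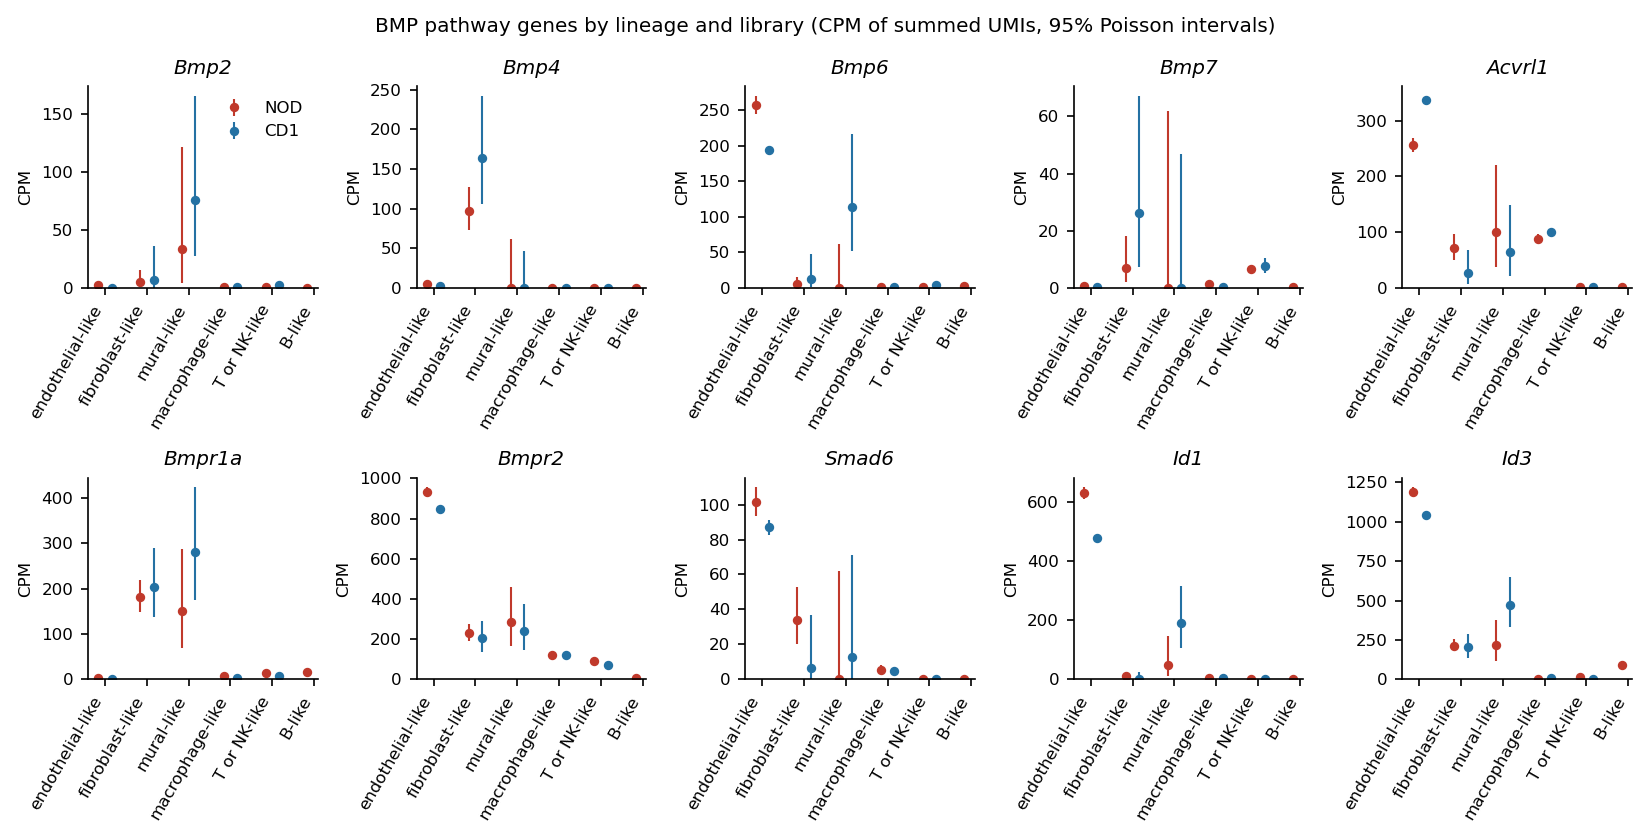
Level of each of the 10 BMP pathway genes (vertical axis, CPM of summed UMIs, from 0) in 6 lineages, given where a library holds at least 10 barcodes of the lineage, with NOD in red, CD1 in blue and bars for the 95% Poisson intervals. *Bmp6*, *Acvrl1*, *Bmpr2*, *Smad6*, *Id1* and *Id3* peak in endothelial-like barcodes of both libraries, whereas *Bmp4* peaks in fibroblast-like barcodes at 97.6 and 164 CPM and the mural-like values rest on 14 barcodes each.

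Among the ligands, *Bmp6*, which is known as the endothelial signal of liver iron regulation, was the vascular one. It was measured at 258 CPM (245 to 271) in NOD endothelial-like barcodes and at 194 CPM (188 to 200.1) in CD1 ones, from 1523 and 3700 UMIs. Endothelial-like barcodes held 88.2% and 91.7% of all *Bmp6* UMIs in kept barcodes. A *Bmp6* UMI was seen in 36.5% (33.6 to 39.5) of NOD and 33.5% (31.8 to 35.3) of CD1 endothelial-like barcodes, against 0.519% and 0.481% of T or NK-like barcodes, whose median depths of 7116.5 and 9585.5 UMIs were larger. After each barcode was thinned to 500 UMIs, the endothelial-like shares were 9.65% and 7.47%. Outside endothelium the levels were low: 0.725 and 1.80 CPM in macrophage-like and 5.32 and 13.1 CPM in fibroblast-like barcodes, the latter from 3 and 2 UMIs. Mural-like barcodes held 0 UMIs in NOD and 9 UMIs in 2 barcodes in CD1, where 8 of 9 endothelial markers were seen (*Cldn5* at 0) and summed to 623 CPM. The part of those endothelial transcripts in the CD1 value of 114 CPM was not tested.

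*Bmp4*, a ligand that mesenchyme sends to epithelium and vessels in many organs, was the stromal one. In fibroblast-like barcodes it was at 97.6 CPM (73.5 to 127) in NOD, from 55 UMIs, and at 164 CPM (106 to 242) in CD1, from 25 UMIs, and these intervals overlap. It was seen in 33.3% (21.4 to 47.1) of NOD and 42.1% (20.3 to 66.5) of CD1 fibroblast-like barcodes. Endothelial-like barcodes, the next lineage, were at 4.91 CPM (3.29 to 7.05) and 2.46 CPM (1.81 to 3.27), with no overlap with fibroblast-like barcodes. Since endothelial-like barcodes were far more numerous, they still held 32.2% of NOD and 61.0% of CD1 *Bmp4* UMIs, against 61.1% and 32.5% in fibroblast-like ones. The fibroblast markers summed to 9.30 and 4.87 CPM in endothelial-like barcodes, far under the 23765 and 24619 CPM of fibroblast-like ones. No *Bmp4* UMI was seen in the 14 mural-like barcodes of either library, which allows, at 3 counts, up to 21.4% of barcodes with a UMI at medians of 4122 and 3078 UMIs, and macrophage-like and T or NK-like barcodes together held 1 UMI in each library.

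*Bmp2* and *Bmp7*, close relatives of *Bmp4* and *Bmp6* respectively, had few UMIs in every stromal and vascular class. *Bmp2* was at 33.6 CPM (4.07 to 121) in NOD and 76.3 CPM (28.0 to 166) in CD1 mural-like barcodes, from 2 and 6 UMIs, and at 5.32 and 6.57 CPM in fibroblast-like ones, from 3 and 1 UMIs. Mural-like and fibroblast-like intervals overlapped in both libraries, so their order was not resolved at this depth. Endothelial-like barcodes held 13 *Bmp2* UMIs in NOD, 11 of them in 3 barcodes without a subtype, and 5 in CD1. *Bmp7* was at 7.10 CPM (1.93 to 18.2) and 26.3 CPM (7.16 to 67.3) in fibroblast-like barcodes, from 4 UMIs in each library, and at 0.677 and 0.314 CPM in endothelial-like ones. Its largest count in a lineage lay outside stroma and vessels, in T or NK-like barcodes, at 6.73 CPM (5.62 to 7.99) and 7.66 CPM (5.40 to 10.6) from 130 and 37 UMIs. These made 57.3% of NOD and 26.6% of CD1 *Bmp7* UMIs, and a further 36.6% and 59.7% lay in barcodes placed in no lineage.

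The type I receptors differed in level between endothelium and stroma. *Acvrl1* was at 256 CPM (243 to 269) in NOD and 336 CPM (328 to 345) in CD1 endothelial-like barcodes and was seen in 64.0% and 73.8% of them, against 0.779% and 0.962% of T or NK-like barcodes. Macrophage-like barcodes carried it at 87.5 CPM (78.7 to 97.0) and 99.8 CPM (95.4 to 104) and held 16.8% and 22.5% of its UMIs. It was seen in 32.8% of NOD and 41.0% of CD1 macrophage-like barcodes, at unlike medians of 3330 and 7004 UMIs. The endothelial markers summed there to 32.9 and 65.7 CPM, with 7 of 9 seen in NOD (*Esam* and *Cldn5* at 0) and 9 of 9 in CD1, against 8996 and 9839 CPM in endothelial-like barcodes. Empty droplets held *Acvrl1* at 30.01 and 124 CPM, and the part of free RNA in the macrophage-like level was not tested, since its estimate failed in NOD macrophage-like barcodes. Fibroblast-like barcodes were at 71.0 and 26.3 CPM and mural-like ones at 101 and 63.6 CPM, with intervals that overlap each other, and T or NK-like ones at 1.09 and 1.45 CPM.

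*Bmpr1a* was instead highest in stromal classes, where *Acvrl1* was found too. Both were seen together in 38.6% of NOD and 21.1% of CD1 fibroblast-like barcodes, against 0.871% and 0.212% of endothelial-like ones. *Bmpr1a* was at 181 CPM (148 to 219.8) in NOD and 204 CPM (138 to 289) in CD1 fibroblast-like barcodes and at 151 CPM (69.2 to 287) and 279.9 CPM (175 to 424) in mural-like ones, and the intervals of these lineages overlap in each library. In endothelial-like barcodes only 15 UMIs were found in NOD, 2.54 CPM (1.42 to 4.19), and 7 in CD1, 0.367 CPM (0.147 to 0.755). T or NK-like barcodes lay between, at 14.6 and 7.46 CPM, as did B-like barcodes of NOD at 15.4 CPM and macrophage-like ones at 7.98 and 3.24 CPM. Epithelial-like barcodes of CD1, 48 in number, were at 54.9 CPM, and 34.2% and 53.2% of *Bmpr1a* UMIs lay in barcodes without a lineage. Fibroblast-like barcodes, few in number, held 13.0% and 8.01% of *Bmpr1a* UMIs. T or NK-like ones held 36.0% and 9.30% and macrophage-like ones 4.19% and 16.8%.

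*Bmpr2*, the type II partner of both, was found more broadly, though still highest in endothelium, at 932 CPM (907 to 957) and 846 CPM (833 to 859). Mural-like barcodes were at 286 and 242 CPM and fibroblast-like ones at 231 and 204 CPM, which overlap, followed by macrophage-like barcodes at 119.9 and 122 CPM, T or NK-like at 91.5 and 72.9 CPM and NOD B-like at 9.24 CPM. Read within single barcodes, *Acvrl1* and *Bmpr2* were seen together in 61.4% and 69.4% of endothelial-like barcodes, 38.6% and 21.1% of fibroblast-like and 16.6% and 23.7% of macrophage-like barcodes. *Bmpr1a* and *Bmpr2* were seen together in 47.4% and 36.8% of fibroblast-like and 35.7% and 42.9% of mural-like barcodes, but in 1.16% and 0.248% of endothelial-like ones. These shares were not adjusted for depth, and NOD fibroblast-like barcodes were the deepest of these classes at a median of 9797 UMIs.

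The inhibitor and the targets were highest where *Acvrl1* was. *Smad6*, which blocks type I receptors and is itself switched on by the pathway, was at 101 CPM (93.5 to 110.0) in NOD and 86.9 CPM (82.7 to 91.2) in CD1 endothelial-like barcodes. Fibroblast-like barcodes were next in NOD, at 33.7 CPM (20.3 to 52.7), while CD1 fibroblast-like barcodes held 1 UMI, and macrophage-like barcodes were at 5.56 and 4.94 CPM. *Id1*, whose product binds and disables basic helix-loop-helix transcription factors, was at 630.5 CPM (610.4 to 651) and 479 CPM (469 to 489) in endothelial-like barcodes, which held 91.3% and 93.3% of its UMIs. Mural-like barcodes were at 50.4 CPM in NOD, from 3 UMIs in 1 barcode, and 191 CPM (107 to 315) in CD1. In NOD fibroblast-like barcodes *Id1* was at 10.6 CPM, and no UMI was seen in the 19 of CD1, which allows, at 3 counts, up to 15.8% of barcodes with a UMI at their depth. Macrophage-like barcodes were at 5.32 and 5.59 CPM, although the free RNA of empty droplets held *Id1* at 89.0 and 226 CPM.

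*Id3*, a relative of *Id1* with the same mode of action, was broader. It was at 1191 CPM (1163 to 1219) and 1039.8 CPM (1025 to 1054) in endothelial-like barcodes and was seen in 84.4% and 84.1% of them. Mural-like barcodes were at 219 CPM (116 to 374) and 471 CPM (331 to 649), and fibroblast-like ones at 215 CPM (178 to 257) and 204 CPM (138 to 289). The intervals of these lineages overlapped in NOD and not in CD1, where 8 of 14 mural-like barcodes held a UMI of *Id1* or *Id3*. These intervals cover counting error only, and the spread between barcodes was not tested. Endothelial markers summed to 623 CPM in CD1 mural-like barcodes, and the part of endothelial transcripts in their *Id3* value was not tested. *Id3* was therefore found in fibroblast-like barcodes that were nearly devoid of *Id1*. B-like barcodes of NOD were at 94.1 CPM (85.6 to 103), with *Id1* at 3.08 CPM, and T or NK-like ones were at 17.2 and 4.97 CPM. At least 1 of *Id1* and *Id3* was seen in 90.6% and 89.1% of endothelial-like, 43.9% and 31.6% of fibroblast-like and 5.06% and 5.82% of macrophage-like barcodes.

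Within endothelium, barcodes were divided by markers of capillary (774 NOD and 2287 CD1) and arterial cells (28 and 45), with the same limit of 75% over 4 subtype lists, and 230 and 487 stayed without a subtype. The 8 arterial markers summed to 3629 and 3972 CPM in arterial-like and 360.3 and 484 CPM in capillary-like barcodes, and the 6 capillary markers to 481 and 574 against 6482 and 8175 CPM. Of the arterial-like barcodes, 14 and 22 had a share of 75% to 85%, near the limit. Mural and fibroblast markers summed to 6.17 and 18.5 CPM in NOD and 8.84 and 8.84 CPM in CD1 arterial-like barcodes.

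*Bmp6* and *Smad6* were the members at least 2-fold higher in arterial-like than in capillary-like barcodes of both libraries, 2 of the 6 members compared in both, and none was 2-fold lower in both. Over all 10980 genes compared in both, 3.32% were at least 2-fold higher and 10.5% at least 2-fold lower in both, and in 1 library 8.7% (NOD) and 11.3% (CD1) were higher and 24.8% and 30.1% lower. *Bmp6* was at 864 CPM (727 to 1019.6) in NOD arterial-like barcodes against 210.3 CPM (197 to 224) in capillary-like ones, and at 994 CPM (868 to 1133) against 157 CPM (151 to 163) in CD1. The log2 ratio, arterial over capillary, was 2.04 (1.77 to 2.30) in NOD, 4.11-fold, and 2.67 (2.46 to 2.86) in CD1, 6.34-fold. The share of barcodes with a *Bmp6* UMI, thinned to 500 UMIs, was 25.2% and 30.4% in arterial-like and 8.60% and 6.26% in capillary-like barcodes (unthinned 67.9% and 53.3% against 35.9% and 33.5%). For *Smad6* the levels were 253 against 83.1 CPM in NOD and 265 against 79.6 CPM in CD1, with log2 ratios of 1.61 (1.10 to 2.07) and 1.73 (1.34 to 2.11). The ligand and the inhibitor were thus higher in arterial-like barcodes, with intervals clear of 0 in both libraries.

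The *Id* targets gave other values. *Id1* was at 629.5 and 630.3 CPM in NOD arterial-like and capillary-like barcodes, a log2 ratio of 0.00 (-0.30 to 0.28), and in CD1 the ratio was 0.06 (-0.22 to 0.33). Both intervals include 0. *Id3* was lower in arterial-like barcodes, at 673 against 1281 CPM in NOD and 773 against 1078 CPM in CD1, with log2 ratios of -0.93 (-1.22 to -0.66) and -0.48 (-0.70 to -0.26). The receptors differed by amounts whose intervals include 0: *Acvrl1* had log2 ratios of 0.31 (-0.13 to 0.71) and 0.14 (-0.18 to 0.45), and *Bmpr2* of -0.16 (-0.42 to 0.09) and -0.19 (-0.42 to 0.03). *Bmp4*, of few endothelial UMIs, was at 35.3 CPM (15.3 to 69.6) in CD1 arterial-like barcodes, from 8 UMIs in 5 barcodes, against 0.954 CPM from 16 UMIs in capillary-like ones, a log2 ratio of 5.21 (3.78 to 6.52). In NOD it was at 12.3 and 2.57 CPM from 2 and 12 UMIs, too few to be compared. The median log2 ratio over all genes compared was -0.17 in NOD and -0.27 in CD1, and over the members 0.15 and 0.14.

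**Figure D2:**
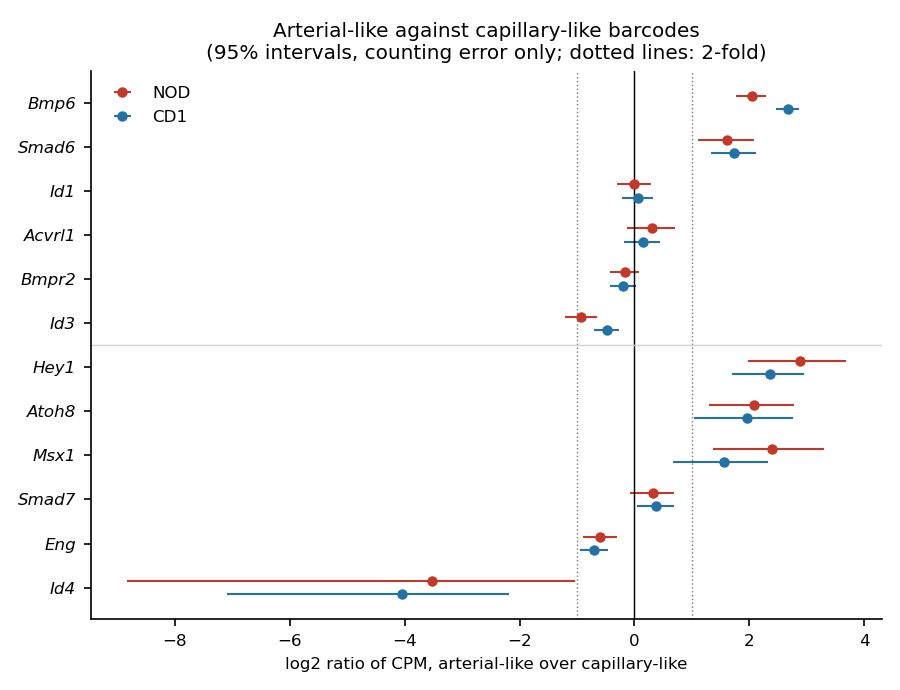
Log2 ratio of CPM, arterial-like over capillary-like (horizontal axis), for the members compared in both libraries, above the grey line, and for targets and regulators of the wider BMP list, below it, with NOD in red, CD1 in blue, bars for 95% intervals of counting error and dotted lines at 2-fold. *Bmp6* and *Smad6* lie beyond the 2-fold line in both libraries, *Id1* lies at 0, and *Id3*, at -0.93 and -0.48, lies below 0.

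The endothelial-like barcodes with at least 3 subtype marker UMIs were also ordered by the arterial share of their subtype marker UMIs. The 5 bins, of 0, up to 25%, up to 50%, under 75% and from 75%, held 276, 570, 84, 29 and 28 NOD and 561, 1803, 226, 87 and 45 CD1 barcodes. The last bin is the arterial-like class itself and adds nothing to the comparison above, and depth was not matched between bins. *Bmp6* was at 151, 212, 462, 914 and 864 CPM along these bins in NOD and at 72.2, 172, 437, 524 and 994 CPM in CD1. *Smad6* was at 91.6, 84.4, 166, 212 and 253 CPM in NOD and at 67.8, 80.6, 148, 147 and 265 CPM in CD1. Both were higher from a share above 25% on, below the limit of 75% for an arterial-like barcode. *Id1* instead was lowest at a share of 0, at 516 and 320.5 CPM, highest in a middle bin, at 740.3 CPM in NOD and 635 CPM in CD1, and at 629.5 and 490.4 CPM in the last. *Id3* was highest in the second bin, at 1284 and 1101 CPM, and at 673 and 773 CPM in the last.

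**Figure D3:**
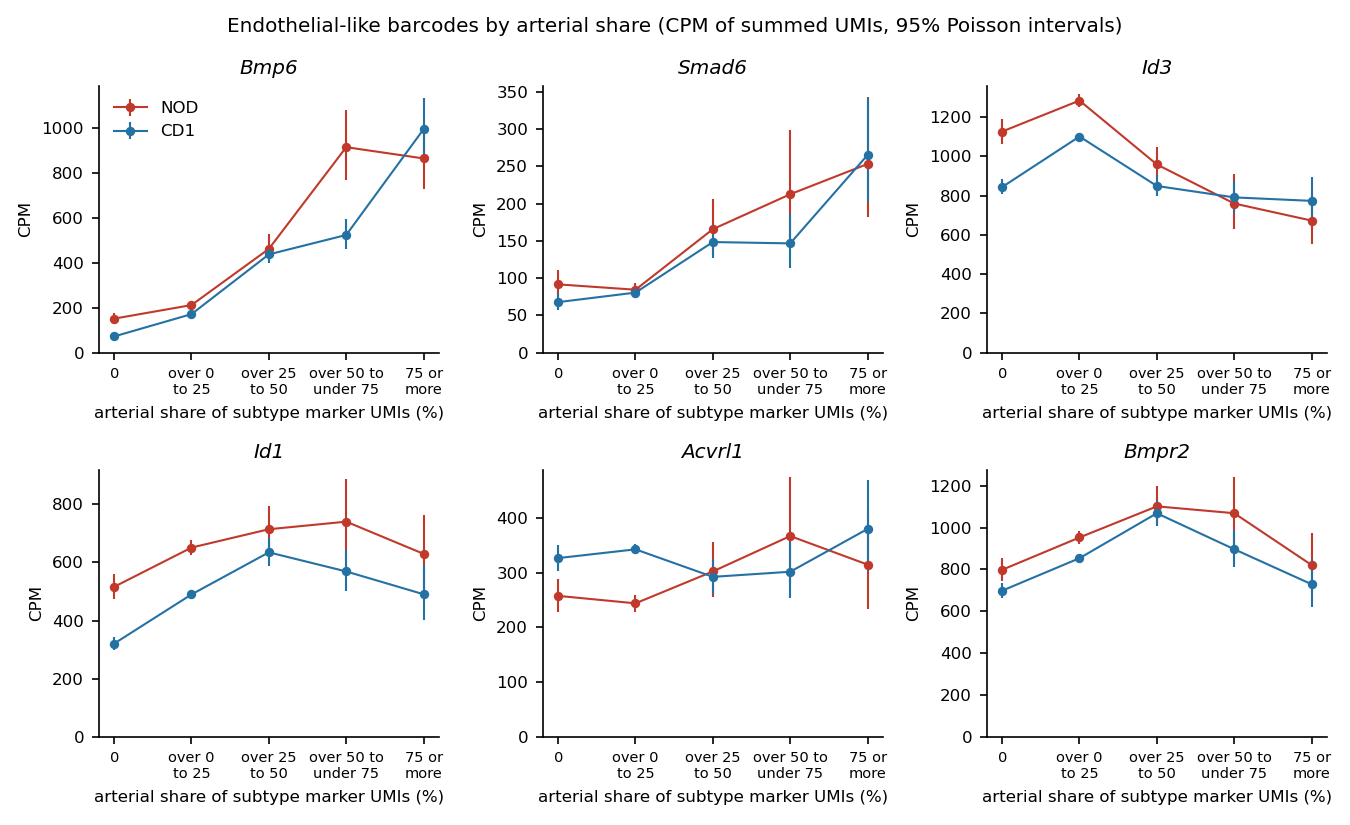
Level of 6 members (vertical axis, CPM of summed UMIs, from 0) in endothelial-like barcodes binned by the arterial share of their subtype marker UMIs (horizontal axis, %), with NOD in red, CD1 in blue and bars for 95% Poisson intervals. *Bmp6* and *Smad6* are higher in bins of larger arterial share in both libraries, reaching 864 and 994 CPM and 253 and 265 CPM in the last bin, where *Id3* is lower than in the second bin and *Id1* lies between its extremes.

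A second division of the vessels came from clustering each library without the BMP genes and naming arterial-like and venous-like clusters by the raised markers of those lists, which also gave venous-like clusters that the single-barcode limit had not (1 NOD and 4 CD1 barcodes). Clusters named arterial-like, capillary-like and venous-like held 68, 700 and 101 NOD barcodes and 367, 1666 and 255 CD1 barcodes, and the venous comparison was added after values had been seen. In the capillary-like clusters 0 to 2 capillary markers were raised over the other endothelial clusters, and they were so called because at least 75% of their subtype marker UMIs came from the capillary list. In NOD they include clusters of 122 and 159 barcodes led by the kallikrein gene *Klk1b26* and the globin gene *Hba-a1*. The part of such transcripts was not tested. *Bmp6* stepped down along this order, at 882, 237 and 79.6 CPM in NOD and 530.2, 164 and 40.9 CPM in CD1, and venous over capillary its log2 ratio was -1.58 (-2.05 to -1.14) and -2.00 (-2.34 to -1.68). *Id1* followed the same order here, unlike its ratio near 0 between arterial-like and capillary-like barcodes, at 782, 664 and 409 CPM in NOD and 661, 489 and 265 CPM in CD1, with log2 ratios, venous over capillary, of -0.70 and -0.88. *Id3* was lower in venous-like clusters too, with log2 ratios of -0.66 and -0.18, whereas those of *Smad6*, 0.10 (-0.33 to 0.52) and -0.05 (-0.30 to 0.20), had intervals that include 0. *Bmp4* was at 27.1 CPM in the venous-like cluster of NOD, from 15 UMIs, against 1.82 CPM in capillary-like ones, and at 4.14 against 0.745 CPM in CD1, from 8 and 10 UMIs. *Smad6* in arterial-like clusters was at 240.2 CPM in NOD and 143 CPM in CD1, against 90.9 and 81.5 CPM in capillary-like ones, so that in CD1 it was under 2-fold by this division. The mural-like cluster of CD1 held 73 barcodes, more than the 14 placed singly, with *Bmpr1a* at 215 CPM, *Id3* at 313 CPM, *Id1* at 109 CPM and *Bmp2* at 10.2 CPM from 8 UMIs, and in NOD no cluster was named mural-like.

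**Figure D4:**
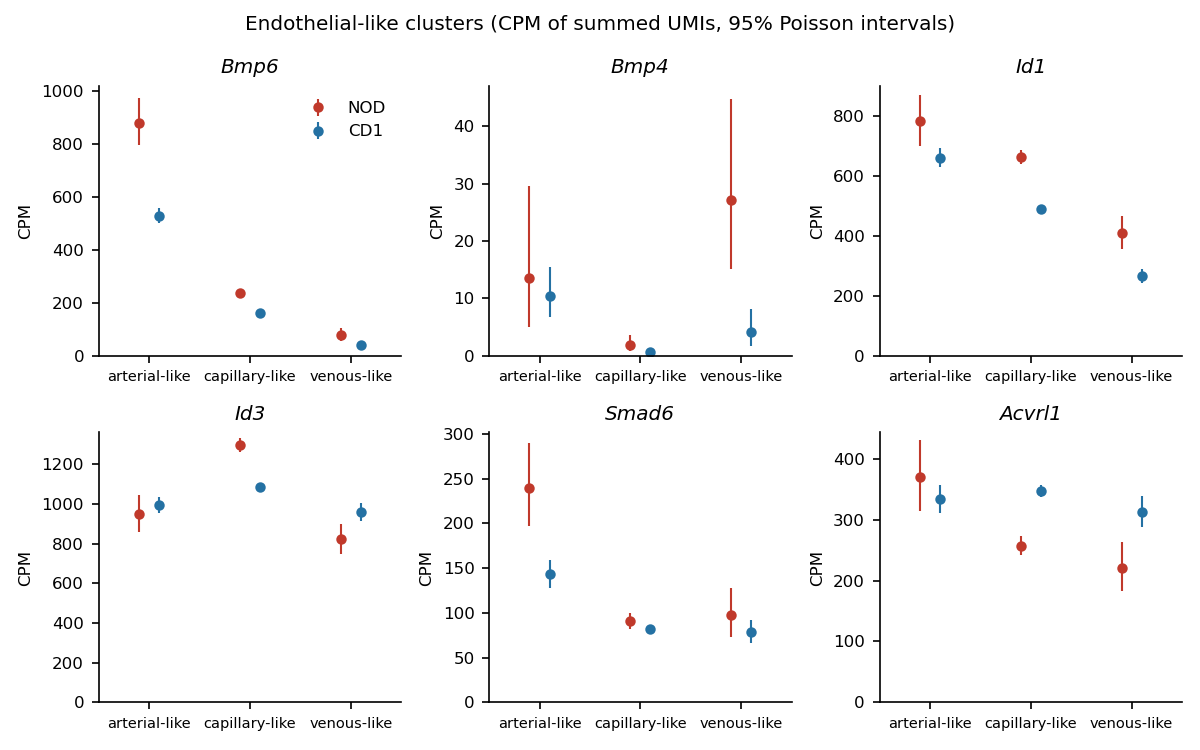
Level of 6 members (vertical axis, CPM of summed UMIs, from 0) in clusters named arterial-like, capillary-like and venous-like in each library, with NOD in red, CD1 in blue and bars for 95% Poisson intervals. *Bmp6* and *Id1* are highest in arterial-like and lowest in venous-like clusters of both libraries, from 882 to 79.6 CPM for *Bmp6* in NOD, whereas *Bmp4* is lowest in capillary-like clusters.

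Over the 10 NOD and 12 CD1 endothelial-like clusters of at least 20 barcodes, *Bmp6* ranged from 79.6 to 882 and 40.9 to 530.2 CPM, the widest span relative to its lowest value among the 6 members that were highest in endothelium. *Id1* ranged from 294 to 933 and 227 to 788 CPM, *Id3* from 465 to 1713 and 355 to 1859 CPM and *Bmpr2* from 566 to 1179.7 and 561 to 1027 CPM. The lowest *Acvrl1*, *Bmpr2*, *Smad6*, *Id1* and *Id3* of NOD and its highest *Bmpr1a*, 15.8 CPM, all came from 1 unnamed cluster of 44 barcodes led by *Skap1*, *Dock2* and *Tox*, genes of T cells. In CD1 the lowest *Id1* and *Id3* came from an unnamed cluster led by *Mucl2*, a salivary secretory gene. The highest *Id1* and *Id3* of NOD came from the cluster of 122 barcodes led by *Klk1b26*, *Esm1* and *Crisp3*. The highest *Id3* of CD1 and its lowest *Acvrl1* and *Bmpr2* came from a cluster led by *Rpl30*, of 24 barcodes at a median of 2838 UMIs.

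To compare the strains, the ratio NOD over CD1 was taken within lineages with at least 20 barcodes in each library, for genes with at least 20 UMIs in both together. In endothelial-like barcodes, 1 of 8 members compared was at least 2-fold apart, against a background of 8.0% of 14175 genes higher and 3.74% lower in NOD. That member was *Bmpr1a*, higher in NOD with a log2 ratio of 2.79 (1.41 to 4.33) from 15 and 7 UMIs. Of the 15 NOD UMIs, 7 lay in 22 barcodes of the cluster led by *Skap1*, *Dock2* and *Tox*, a cluster singled out after its values were seen, and the other 1011 endothelial-like barcodes held 8, or 1.42 CPM (0.613 to 2.80). The 9 T or NK markers, all of them seen in both libraries, summed to 77.6 CPM in NOD and 11.5 CPM in CD1 endothelial-like barcodes, and T or NK-like barcodes carried *Bmpr1a* at 14.6 and 7.46 CPM. The part of such transcripts in the ratio was not tested. The other members were closer. *Bmp6* had a log2 ratio of 0.41 (0.32 to 0.50), *Id1* of 0.40 (0.34 to 0.45), *Id3* of 0.20 (0.16 to 0.23), *Smad6* of 0.22 (0.09 to 0.36) and *Bmpr2* of 0.14 (0.09 to 0.18), all higher in NOD. *Acvrl1* was the member lower in NOD, at -0.40 (-0.48 to -0.31), with 64.0% of NOD and 73.8% of CD1 barcodes carrying it at medians of 5154 and 6193 UMIs. *Bmp4* was higher in NOD by 1.00 (0.27 to 1.69) on the log2 scale, 1.99-fold, from 29 and 47 UMIs. The median over all genes was 0.07 and over the members 0.31. The share of free RNA estimated from secretory genes was 7.62% of endothelial-like UMIs in NOD and 1.27% in CD1. The count of members apart after this RNA was subtracted is given below with the other alternatives.

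Capillary-like barcodes, the bulk of the endothelium, gave like values: *Bmp6* 0.42 (0.32 to 0.53), *Id1* 0.42 (0.36 to 0.48), *Id3* 0.25 (0.21 to 0.29) and *Acvrl1* -0.43 (-0.53 to -0.34) on the log2 scale, while *Smad6*, at 0.06 (-0.11 to 0.23), had an interval that includes 0. *Bmp4* was past 2-fold there, at 1.43 (0.22 to 2.60) from 12 and 16 UMIs, against a background of 7.74% higher and 3.79% lower. In arterial-like barcodes 0 of 6 members were 2-fold apart (background 6.05% higher and 6.16% lower), and all 6 intervals include 0: *Bmp6* was at -0.20 (-0.52 to 0.11), *Smad6* at -0.07 (-0.68 to 0.53) and *Id1* at 0.36 (-0.04 to 0.76). With 28 and 45 barcodes, differences within these intervals are not excluded by the counts, and the intervals leave out the spread between barcodes and pools. Endothelial-like barcodes without a subtype had 0 of 7 members 2-fold apart (4.5% higher and 3.94% lower). By named clusters, the arterial ratio of *Bmp6* was 0.73 in place of -0.20 and that of *Smad6* 0.75 in place of -0.07, so the order of the strains in arterial endothelium depended on how arterial cells were chosen.

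Fibroblast-like barcodes of CD1 and mural-like barcodes of both libraries were too few for a ratio, so their values stand side by side. *Bmp4* was at 97.6 CPM in NOD and 164 CPM in CD1 fibroblast-like barcodes, *Bmpr1a* at 181 and 204 CPM, *Bmpr2* at 231 and 204 CPM and *Id3* at 215 and 204 CPM, and for each of the 4 the intervals overlap. *Acvrl1* was at 71.0 CPM (50.7 to 96.7) in NOD and 26.3 CPM (7.16 to 67.3) in CD1 fibroblast-like barcodes, the latter from 4 UMIs. Clusters named fibroblast-like held 90 and 103 barcodes, with *Bmp4* at 59.6 and 69.4 CPM and *Bmpr1a* at 184 and 93.5 CPM. The CD1 cluster was shallow, at a median of 1592 UMIs against 7322 in NOD. In it 5 fibroblast markers were raised, against 9 in NOD, and the secretory genes *Mucl1* and *Mucl2* were among its leading genes. The part of depth and of secretory RNA in these values was not tested.

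In macrophage-like barcodes 2 of 8 members were 2-fold apart (background 8.13% higher and 6.15% lower in NOD). *Bmpr1a* was higher in NOD by 1.30 (0.65 to 1.92) on the log2 scale, from 33 and 65 UMIs, and *Bmp6* was at -1.31 (-3.65 to 0.35) from 3 and 36 UMIs, an interval that includes 0. The T or NK markers summed to 125 and 36.4 CPM and the B markers to 45.0 and 9.43 CPM in NOD and CD1 macrophage-like barcodes, and their part in the *Bmpr1a* ratio was not tested. *Acvrl1* was close between the strains at -0.19 (-0.35 to -0.03), and *Bmpr2* at -0.03 (-0.17 to 0.11). In T or NK-like barcodes 3 of 8 were 2-fold apart (11.5% higher and 5.32% lower). *Id3* was higher in NOD by 1.79 (1.19 to 2.45), at 17.2 against 4.97 CPM, and *Bmp2* and *Bmp6* were lower, at -2.35 (-3.63 to -1.10) and -1.59 (-2.45 to -0.70). The CD1 *Bmp6* value rests on 21 UMIs in 2 barcodes, and the endothelial markers summed to 62.2 CPM in NOD and 98.2 CPM in CD1 T or NK-like barcodes. Their part was not tested. The *Id3* ratio turned to -0.72 when T or NK-like cells were taken by named clusters, so its direction depended on the choice of cells. Named T or NK-like clusters differed in make-up. Those with *Xcl1* or *Gzma* among their leading genes held 580 and 300 NOD and 260 and 130 CD1 barcodes. Those with *Themis*, *Foxp3* or *Cd8a* held 611, 367 and 318 NOD barcodes and, for *Themis*, 181 in CD1. A further NOD cluster of 264 was led by *Pdzrn3*, and an unnamed NOD cluster of 353 with *Lef1* and *Tcf7* was left out. The part of this make-up in the ratios was not tested.

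**Figure D5:**
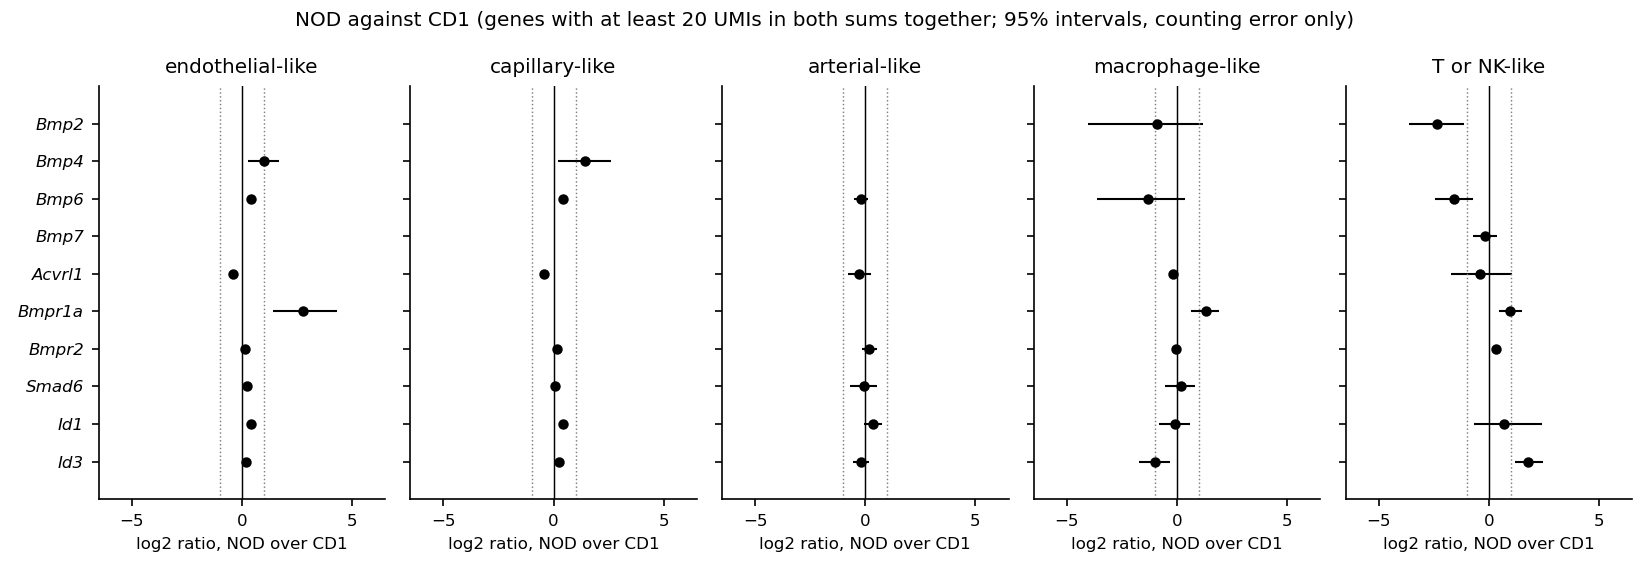
Log2 ratio NOD over CD1 (horizontal axis) of each member with at least 20 UMIs in both sums together, in 5 classes of barcodes, with bars for 95% intervals of counting error, a solid line at 0 and dotted lines at 2-fold. In endothelial-like barcodes *Bmp6*, *Id1*, *Id3*, *Smad6* and *Bmpr2* lie above 0 and under 2-fold, *Acvrl1* lies below 0 at -0.40 and *Bmpr1a* beyond 2-fold at 2.79, and in arterial-like barcodes all 6 intervals include 0.

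A wider list of 56 BMP genes was read in the same sums. Of these, 32 had at least 20 UMIs in endothelial-like, 26 in fibroblast-like, 7 in mural-like, 25 in macrophage-like and 24 in T or NK-like barcodes, and *Gdf7*, *Grem1* and *Msx2* had no UMI in these classes. Of all genes with a UMI, 48.5% reached 20 UMIs in endothelial-like, 20.7% in fibroblast-like, 4.28% in mural-like, 49.9% in macrophage-like and 49.0% in T or NK-like barcodes. In endothelial-like barcodes 11 of 12 targets, 8 of 11 receptors or co-receptors and 2 of 13 ligands, *Bmp4* and *Bmp6*, reached this number, and the receptor count was also 8 in fibroblast-like and in macrophage-like barcodes. The co-receptor *Eng*, which presents ligand to ACVRL1, was at 921 and 1007 CPM in endothelial-like and 83.4 and 184 CPM in fibroblast-like barcodes. *Smad1*, a transducer, was at 97.6 and 80.8 CPM and *Smad7*, an inhibitor shared with the transforming growth factor beta pathway, at 307 and 290.1 CPM in endothelial-like barcodes. Of the further *Id* genes, *Id4* was at 60.6 and 130.3 CPM in endothelial-like barcodes, and *Id2* lay mostly in T or NK-like ones, at 569 and 809.7 CPM against 75.1 and 45.3 CPM.

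Of 14 secreted antagonists and modulators, 6 had at least 20 UMIs in fibroblast-like, 5 in endothelial-like and 2 in mural-like barcodes. *Fst*, the activin and BMP trap follistatin, was at 928 and 545 CPM in fibroblast-like barcodes, from 523 and 83 UMIs, and *Bmper*, which binds BMPs outside the cell, at 220.1 and 138 CPM. *Mgp*, a matrix protein that binds BMP2 and BMP4, was at 3646 and 7385 CPM in fibroblast-like and 130.4 and 67.5 CPM in endothelial-like barcodes. The co-receptor *Rgmb* was at 121 and 85.4 CPM and the follistatin relative *Fstl1* at 367 and 420.5 CPM in fibroblast-like barcodes.

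Between arterial-like and capillary-like barcodes, 7 of 27 genes of the wider list compared in NOD were at least 2-fold higher and 5 lower, and 10 of 29 in CD1 were higher and 2 lower, against 8.7% higher and 24.8% lower of all genes in NOD and 11.3% and 30.1% in CD1. Among them *Mgp* had log2 ratios, arterial over capillary, of 8.45 and 8.50, *Hey1*, a Notch and BMP target, 2.87 and 2.35, and *Atoh8*, a BMP target of endothelium, 2.07 and 1.96. *Id4* was the other way, at -3.53 and -4.04 from 1 and 2 arterial-like UMIs, and *Eng* was lower by less than 2-fold, at -0.59 and -0.70. Of the BMP targets, *Atoh8*, *Hey1* and *Smad6* were thus higher in arterial-like barcodes, as was *Msx1* at 2.39 and 1.56, *Id3* and *Id4* were higher in capillary-like ones, and the intervals of *Id1* include 0. Between the strains, 2 of 32 genes of the wider list were at least 2-fold higher in NOD endothelial-like barcodes, *Bmpr1a* and *Tmem100* (1.61 from 18 and 19 UMIs), and 2 lower, *Id4* at -1.11 and *Nbl1* at -1.48, shares near the 8.0% and 3.74% of all genes.

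The genes most alike in pattern were found by Pearson's r of log2(CPM + 10) over 15 sums of a lineage in a library with at least 100000 UMIs, among 14735 genes, and are a description, since the sums share libraries and lineages. They were *Bgn* (0.963), *Fign* (0.962), *Gas1* (0.961) for *Bmp4*, *Dipk2b* (0.992), *Jag2* (0.990), *Epb41l4a* (0.990) for *Bmp6*, *Adam15* (0.971), *Pld2* (0.959), *Kitl* (0.958) for *Acvrl1* and *Mmrn2* (0.998), *Nova2* (0.996), *Cyyr1* (0.996) for *Id1*. For *Bmp4* these include *Bgn*, which encodes the matrix proteoglycan biglycan, and for *Bmp6* they include *Jag2*, which encodes a Notch ligand.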

How the data were processed

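The counts the authors deposited are raw UMIs per gene and barcode of 1 NOD and 1 CD1 library (10x Genomics), for all barcodes, with no cell filter or scaling. The submitters' processing notes name Cell Ranger 8.0.0, GRCm39, Seurat 5.0.1 and R 4.3.1. The libraries held 52790319 and 56483149 UMIs, of which 43439635 and 49420810 lay in kept barcodes. Barcodes were kept at 500 UMIs and 300 genes, with no mitochondrial limit and no doublet removal.

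Lineages were given by 78 markers in 10 lists and endothelial subtypes by 27 markers in 4 lists. UMIs were summed per class and library and scaled to CPM. Log2 ratios were taken for genes with at least 20 UMIs in the sums compared and carry conditional binomial intervals. With 1 library per strain no test was possible, and a gene past 2-fold was counted as apart. Barcodes were not treated as replicates. Shares were also given at their expectation after thinning to 500 UMIs.

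The 10 genes, the wider list and the markers were chosen with earlier results of these data known. The genes named are the 10 members, genes of the wider list with at least 20 UMIs in a class, and the 3 most alike in pattern to *Bmp4*, *Bmp6*, *Acvrl1* and *Id1*, and genes that lead a cluster were named after their values were seen. For the clusters, each library was clustered alone without the BMP genes (2000 features, 30 principal components, resolution 1), and a cluster was named when at least 3 markers of a list were raised, its leading 10 genes held no more markers of another list, and it was not shallow without such a marker. Endothelial clusters with no other subtype were called capillary-like when at least 75% of their subtype marker UMIs came from the capillary list. Neither *Ptprc* nor a listed marker of another lineage could be among their leading 10 genes, and a shallow cluster needed a capillary marker there. Kallikrein and globin genes are in no list. Clusters led by *Klk1b26* (122 NOD barcodes), *Hba-a1* (159 NOD barcodes) and *Klk1* (16 CD1 barcodes) were therefore kept as capillary-like. Alternatives changed the barcode filter, mitochondrial limit, doublets (Scrublet), lineage share, naming by clusters, weight of barcodes, scaling and free RNA. The ratio intervals were checked on simulated Poisson class sums with known changes. Barcode placement, clustering and spread between barcodes were not simulated. Python 3.11.15, numpy 2.4.6, scipy 1.17.1, pandas 2.3.3, scanpy 1.11.5 and matplotlib 3.10.9 were used.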

Additional observations from a re-analysis of the deposited data

Results flagged for a closer look

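Ratios of the same gene lay on opposite sides of 0, or clearly apart, in different lineages, and none of these differences between lineages was tested across samples, since each strain has 1 library. *Bmp6* had a log2 ratio NOD over CD1 of 0.41 in endothelial-like and -1.59 in T or NK-like barcodes, the latter with 21 CD1 UMIs in 2 barcodes. *Id3* had log2 ratios of 0.20 in endothelial-like, 1.79 in T or NK-like and -0.99 in macrophage-like barcodes, where it was -0.28 once the barcodes with the highest doublet scores were removed.

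*Bmp7* was found in barcodes that no comparison used. It was at 20.8 CPM in NOD and 41.6 CPM in CD1 barcodes with fewer than 3 marker UMIs, and at 7.53 CPM in NOD barcodes with markers of several lineages. Fibroblast-like barcodes were at 7.10 and 26.3 CPM, T or NK-like ones at 6.73 and 7.66 CPM and endothelial-like ones at 0.677 and 0.314 CPM. The NOD value of 7.53 CPM was thus close to those of fibroblast-like and T or NK-like barcodes.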

How the results depend on the processing

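No paired analysis was possible because each strain has 1 library of pooled mice. The count of 6 members highest in endothelial-like barcodes was the same under every alternative run in both libraries. By named clusters, members at least 2-fold higher in arterial endothelium of both libraries numbered 1 in place of 2, since *Smad6* was at 0.81 on the log2 scale in CD1, *Bmp6* was at 1.70 there in place of 2.67, *Id1* at 0.44 in place of 0.06 and *Id3* at -0.13 in place of -0.48. Members at least 2-fold apart between strains in capillary-like barcodes numbered 0 in place of 1 with a lineage share of 90%, by named clusters and by the mean of barcode CPM, and 2 with a subtype share of 60%, chosen after seeing the data. In endothelial-like barcodes they numbered 2 in place of 1 by named clusters and after free RNA was subtracted. In macrophage-like barcodes they numbered 1 in place of 2 by named clusters, and in T or NK-like ones 1 in place of 3 at a share of 90%. The log2 ratio of *Id3* in T or NK-like cells was -0.72 by named clusters in place of 1.79. The causes were not tested. Of 377 values of 50 single ratios, 331 stayed within the counting interval of the value reported and 45 lay outside it beside that of *Id3*. The other sign was taken by 33 values of 14 ratios, of which *Id3* in T or NK-like cells was past 2-fold as reported and the rest were not. At a share of 90% fewer than 20 arterial-like barcodes were left, so that comparison has no value there, and the free RNA estimate failed in NOD macrophage-like and B-like barcodes. Depth limits *Bmp2*, *Bmp7* and all mural-like and CD1 fibroblast-like values. Median-of-ratios scaling shifted class sums by -0.20 to 0.29 on the log2 scale and changed no count of members but that in macrophage-like barcodes, 3 in place of 2.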

Other observations

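*Bmp7*, rare in stroma and vessels, was read further in barcodes with UMIs of both *Gata3*, a transcription factor of T cells and group 2 innate lymphoid cells, and *Il1rl1*, the receptor for interleukin-33, a split chosen after the values were seen. The 164 such NOD barcodes were at 36.6 CPM (27.9 to 47.1) and held 26.4% of all *Bmp7* UMIs, and the 94 of CD1 were at 76.1 CPM (59.3 to 96.1) and held 50.4%. A *Bmp7* UMI was seen in 23.2% and 46.8% of them. Barcodes with *Gata3* only, 1405 in NOD and 353 in CD1, were at 7.02 and 6.18 CPM and held 41.9% and 20.1% of *Bmp7* UMIs. In NOD this was a larger part than that of barcodes with both genes. Barcodes with *Il1rl1* only held 0 and 1 UMIs. Barcodes with neither gene were at 2.60 and 0.965 CPM and held 31.7% and 28.8%. Of the barcodes with both, 86 in NOD and 79 in CD1 had been placed in no lineage.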
